A study of Mus musculus with 2 samples.

Results

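The 3 genes followed here encode the secreted and membrane signals through which bone stroma controls osteoclasts: Tnfsf11 (RANKL), Csf1 (macrophage colony-stimulating factor) and Tnfrsf11b (osteoprotegerin). They were taken by name, and each name matched 1 of the 32293 genes measured. The mice were Prrx1-cre; R26R(tdTomato/+), aged 21 days after birth. Their femurs were digested, the tdTomato+ cells were sorted, and 10x Multiome read RNA and open chromatin (ATAC) from each single nucleus. The Prrx1 limb enhancer drives Cre in limb mesenchyme and all cells descended from it, and the distal growth plates were removed before digestion. By the study's methods, sorted cells of males and females of 1 litter were pooled. There was 1 library of each kind, every barcode carried both readouts, and no other genotype, age or treatment enters, so the comparisons are between classes of nuclei within 1 library and carry no test between animals. The intervals given are 95% and cover counting error only.

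Of 728634 barcodes, 2626 were kept as nuclei, with a median of 1778 RNA UMIs and 28680 ATAC counts. They were grouped into 21 clusters without the 3 genes, and the clusters were called "-like" a cell type from marker genes. Reticular-like nuclei (744), which carry the markers of CXCL12-abundant reticular stroma, fell into 4 clusters, and 2 of these were led by the transcript Gm16685 and are called Gm16685-led (350 nuclei), against 394 other reticular-like nuclei. The other named stromal classes were osteoblast-like (395 nuclei), osteocyte-like (57), chondrocyte-like (57), periosteal/tenocyte-like (63) and mural-like (83), and 3 stromal clusters stayed without a cell type name and are called by a leading gene: Limch1-led (166), Pde4c-led (65) and Pde11a-led (42). The next 3 genes are from the lists that gave the names, so their levels describe the classes and do not check the names. Cxcl12 stood at 1842 CPM (UMIs per 1000000 UMIs of the class) in reticular-like and 63.2 CPM in osteoblast-like nuclei. Dmp1 was at 4652 CPM in osteocyte-like and 339 CPM in osteoblast-like nuclei, and Acan at 3969 CPM in chondrocyte-like and 146 CPM in reticular-like nuclei. Sost, a marker of mature osteocytes, gave only 9 UMIs in the osteocyte-like class. The sort also held 485 blood-like nuclei (erythroid, granulocyte, macrophage and B-lymphoid), which serve as background, 21 endothelial-like nuclei, and 448 nuclei left unnamed. Among the named stromal classes, the median depth ran from 1385 UMIs in other reticular-like to 15631 UMIs in chondrocyte-like nuclei.

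Osteoclasts form from macrophage precursors that need 2 signals from their surroundings. CSF1 keeps the precursors alive through its receptor CSF1R, and RANKL on stromal cells binds RANK on the precursors and turns them into bone-resorbing cells. Osteoprotegerin is a soluble decoy that captures RANKL, so the balance of RANKL and osteoprotegerin sets how much bone is resorbed. Osteoblasts, osteocytes, hypertrophic chondrocytes, marrow stromal cells and lymphocytes have all been described as sources of RANKL, and the mouse Tnfsf11 gene is known for enhancers spread over a long stretch upstream of its start.

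The accessible sites on which the results below turn are shown first, with the ATAC counts given further on. All 3 genes lie on the minus strand of mm10 (GRCm38): Tnfsf11 at chr14:78277445-78308043, Tnfrsf11b at chr15:54250619-54278484 and Csf1 at chr3:107741048-107760469. Distances are in kb from the gene start in the direction of transcription, so a negative value is upstream. The first 3 windows are the middle 200 bases of peaks near Tnfsf11, on the plus strand: the site at 65.6 kb (chr14:78242300-78242499) and the site at -76.7 kb (chr14:78384618-78384817) were more accessible in Gm16685-led than in other reticular-like nuclei, and the site at -58.1 kb (chr14:78366070-78366269) had the highest ratio in reticular-like nuclei. Of the sites higher in Gm16685-led nuclei, the first had the highest ratio in reticular-like nuclei as a whole, and the second the highest lower bound of the ratio between the 2 reticular-like classes. Capitals mark motifs found by their letters on either strand.
Tnfsf11 +65.6 kb: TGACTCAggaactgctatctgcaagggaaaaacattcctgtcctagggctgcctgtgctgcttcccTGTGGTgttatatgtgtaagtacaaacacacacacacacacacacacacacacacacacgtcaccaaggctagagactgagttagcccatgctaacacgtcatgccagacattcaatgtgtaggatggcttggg
Tnfsf11 -76.7 kb: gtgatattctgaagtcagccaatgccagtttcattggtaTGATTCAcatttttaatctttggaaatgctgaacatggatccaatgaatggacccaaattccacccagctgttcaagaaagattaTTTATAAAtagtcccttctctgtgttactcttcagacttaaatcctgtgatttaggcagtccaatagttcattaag
Tnfsf11 -58.1 kb: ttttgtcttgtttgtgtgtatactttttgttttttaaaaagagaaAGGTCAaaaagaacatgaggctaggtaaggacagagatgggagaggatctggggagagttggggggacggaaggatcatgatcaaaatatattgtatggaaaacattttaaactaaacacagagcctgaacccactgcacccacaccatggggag
The first holds an AP-1 motif (TGANTCA, in 15.7% of all 203502 peak windows of this length) and a RUNX motif (TGTGGT, 24.6%). The second holds an AP-1 motif and 2 overlapping copies of TATAAA on opposite strands (9.78% of windows). The third holds the nuclear receptor motif AGGTCA (13.2%).

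The next 2 windows are the sites upstream of Tnfrsf11b with the highest ratio in osteocyte-like nuclei (-84.6 kb, chr15:54362942-54363141, plus strand) and in chondrocyte-like nuclei (-16.1 kb, chr15:54294478-54294677, plus strand).
Tnfrsf11b -84.6 kb: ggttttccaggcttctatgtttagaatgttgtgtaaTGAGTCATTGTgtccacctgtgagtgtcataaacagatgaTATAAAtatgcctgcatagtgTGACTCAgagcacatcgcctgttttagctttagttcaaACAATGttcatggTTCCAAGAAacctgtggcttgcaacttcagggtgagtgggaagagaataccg
Tnfrsf11b -16.1 kb: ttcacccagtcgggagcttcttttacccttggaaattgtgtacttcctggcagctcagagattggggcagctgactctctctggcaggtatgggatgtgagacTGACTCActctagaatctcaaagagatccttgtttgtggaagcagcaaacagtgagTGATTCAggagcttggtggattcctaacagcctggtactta
The site at -84.6 kb holds 2 AP-1 motifs, 2 SOX motifs (ACAATG, in 10% of windows, of which 1 overlaps an AP-1 motif), a STAT motif (TTCNNNGAA, 6.9%) and TATAAA. The site at -16.1 kb holds 2 AP-1 motifs. No SOX motif was found in that window, which says nothing of SOX9 there.

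The last 2 peak windows lie around Csf1: the site at 29.1 kb (chr3:107731283-107731482, plus strand), with the highest ratio in reticular-like nuclei, and the site at -68.1 kb (chr3:107828470-107828669, plus strand), with the highest lower bound of the ratio of Gm16685-led to other reticular-like nuclei. Beside them stand the 250 bases before the start of Csf1 (chr3:107760470-107760719, minus strand) and of Tnfsf11 (chr14:78308044-78308293, minus strand), from RefSeq's promoter table on GRCm38.p6. That table matched 2 of the 3 genes, and Tnfrsf11b was not among them.
Csf1 +29.1 kb: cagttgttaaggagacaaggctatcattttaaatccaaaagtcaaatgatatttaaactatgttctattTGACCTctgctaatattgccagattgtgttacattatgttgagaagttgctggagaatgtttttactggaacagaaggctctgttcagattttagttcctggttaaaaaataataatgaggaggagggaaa
Csf1 -68.1 kb: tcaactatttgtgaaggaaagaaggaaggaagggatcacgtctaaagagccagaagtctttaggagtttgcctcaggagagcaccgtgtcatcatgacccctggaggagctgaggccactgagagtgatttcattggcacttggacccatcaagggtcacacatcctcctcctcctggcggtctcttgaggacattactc
Csf1 promoter: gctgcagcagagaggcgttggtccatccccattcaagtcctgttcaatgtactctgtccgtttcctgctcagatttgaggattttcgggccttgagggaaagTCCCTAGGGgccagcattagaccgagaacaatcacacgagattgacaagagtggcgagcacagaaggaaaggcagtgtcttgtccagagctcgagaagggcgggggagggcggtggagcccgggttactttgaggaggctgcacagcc
Tnfsf11 promoter: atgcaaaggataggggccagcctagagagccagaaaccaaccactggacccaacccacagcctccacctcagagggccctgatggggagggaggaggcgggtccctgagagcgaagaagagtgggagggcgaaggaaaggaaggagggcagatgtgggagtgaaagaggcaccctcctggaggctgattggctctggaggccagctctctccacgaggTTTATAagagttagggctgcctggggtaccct
The site at 29.1 kb holds AGGTCA on its minus strand, the site at -68.1 kb held no motif searched, the Csf1 promoter holds an EBF motif (CCCNNGGGA, in 5.6% of 32851 promoters of this length) and the Tnfsf11 promoter TATAAA in reverse (12.4%). The other motifs searched were CRE (TGACGTCA, 0.494% of peak windows), C/EBP (TTGCNNAA, 10.6%), MEF2 (TAAAAATA, 2.88%) and NF-kB (GGGANTTCC, 1.1%), and none was in these 9 sequences. A match is a description of letters, not of a bound factor.

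Tnfsf11 RNA was held mainly by the reticular-like nuclei. They gave 762 UMIs, or 483 CPM (449 to 518), against 96 UMIs and 18.8 CPM in the other named stromal classes, 25.6-fold higher (log2 ratio 4.68, 4.38 to 5.01), and they held 71.8% of all Tnfsf11 UMIs in nuclei. The reference of this ratio leaves out the Limch1-, Pde4c- and Pde11a-led clusters, which stood at 162 to 214 CPM. At least 1 UMI was found in 264 of 744 reticular-like nuclei (35.5%, 32.0 to 39.0%, median 1454 UMIs), against 4.12% of blood-like nuclei (median 1473 UMIs). With every nucleus thinned to 500 UMIs the share was 15.2% in reticular-like and 1.65% in blood-like nuclei. Of the 11169 genes tested, 21.2% were called higher in reticular-like nuclei by the same rule, which asks for a 2-fold ratio and at least 20 UMIs over both sides.

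Within the reticular-like nuclei, Tnfsf11 stood at 633 CPM (579 to 692) in the Gm16685-led class, against 334 CPM (295 to 377) in the other reticular-like nuclei, 1.89-fold (log2 ratio 0.92, 0.70 to 1.14), which is under the 2-fold rule. The 2 Gm16685-led clusters were at 712 and 597 CPM, against 366 and 205 CPM in the 2 other clusters. The share of all genes that separate these clusters in this way was not counted. A UMI was found in 46.3% of Gm16685-led and 25.9% of other reticular-like nuclei, or 20.6% and 10.4% after thinning. The ratio was 0.47 on the log2 scale with a 10% limit on mitochondrial UMIs.

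A second tier was formed by the 3 stromal clusters without a cell type name. Tnfsf11 was at 214 CPM (163 to 276) in Pde11a-led nuclei, which are led by Mmp9, Pde11a, F13a1 and Mmp13, at 190 CPM (131 to 267) in Pde4c-led and at 162 CPM (119 to 215) in Limch1-led nuclei, and these 3 did not differ beyond their intervals. In Pde11a-led nuclei the level was 7.63-fold that of chondrocyte-like nuclei (log2 ratio 2.93, 2.29 to 3.63). In Limch1-led nuclei it was 10.96-fold that of osteoblast-like nuclei (log2 ratio 3.45, 2.84 to 4.07). The 10 reticular markers summed to 3612 CPM in Pde4c-led, 1684 CPM in Limch1-led and 750 CPM in Pde11a-led nuclei, against 10057 CPM in reticular-like nuclei. The same sum was 1106 CPM in mural-like, 679 CPM in chondrocyte-like and 283 CPM in osteoblast-like nuclei. It was 901 CPM in blood-like nuclei, with 1810 CPM in the macrophage-like ones. By this sum Limch1-led nuclei were thus not above macrophage-like nuclei, and Pde11a-led nuclei not above blood-like nuclei. None of the 10 was at 0 in any of the 3 clusters, nor in osteoblast-like, chondrocyte-like, mural-like or blood-like nuclei. The mean log2 ratio of the 10 to the median cluster was 2.26 in Pde4c-led and 1.01 in Limch1-led nuclei, against 2.6 to 4.02 in the reticular-like clusters. In Pde4c-led nuclei all 10 had 10 UMIs and 2 times the median level, and the next list averaged 0.86. In Pde11a-led nuclei the 9 osteoclast markers summed to 3831 CPM (3 of them at 0), against 47.3 CPM in chondrocyte-like nuclei. The 4 markers of hypertrophic chondrocytes summed to 7912 CPM, against 6084 CPM. Averaged over the genes of a list, the log2 ratio to the median cluster was 0.71 for osteoclast and 2.05 for hypertrophic markers. Only 2 of the hypertrophic markers had 10 UMIs and 2 times the median level. The part of these markers' cells in the Tnfsf11 levels was not tested.

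The bone- and cartilage-forming classes carried little Tnfsf11. The level was 36.9 CPM (10 UMIs) in periosteal/tenocyte-like, 27.8 CPM (30 UMIs) in chondrocyte-like, 21.4 CPM (5 UMIs) in mural-like, 14.8 CPM (47 UMIs) in osteoblast-like and 11.6 CPM (4 UMIs, 3.17 to 29.8) in osteocyte-like nuclei. These values lay around the 26.9 CPM (34 UMIs, 18.6 to 37.6) of blood-like nuclei and below the 71.4 CPM of barcodes with free RNA only. Expression in these 5 classes could thus not be told from background at this depth. In osteocyte-like nuclei Tnfsf11 was among the 27.5% of genes called lower, and in osteoblast-like nuclei among the 28.0%. Markers of T and NK cells, which also make RANKL, gave 2 UMIs in reticular-like nuclei, with 8 of 10 markers at 0.

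**Figure D1:**
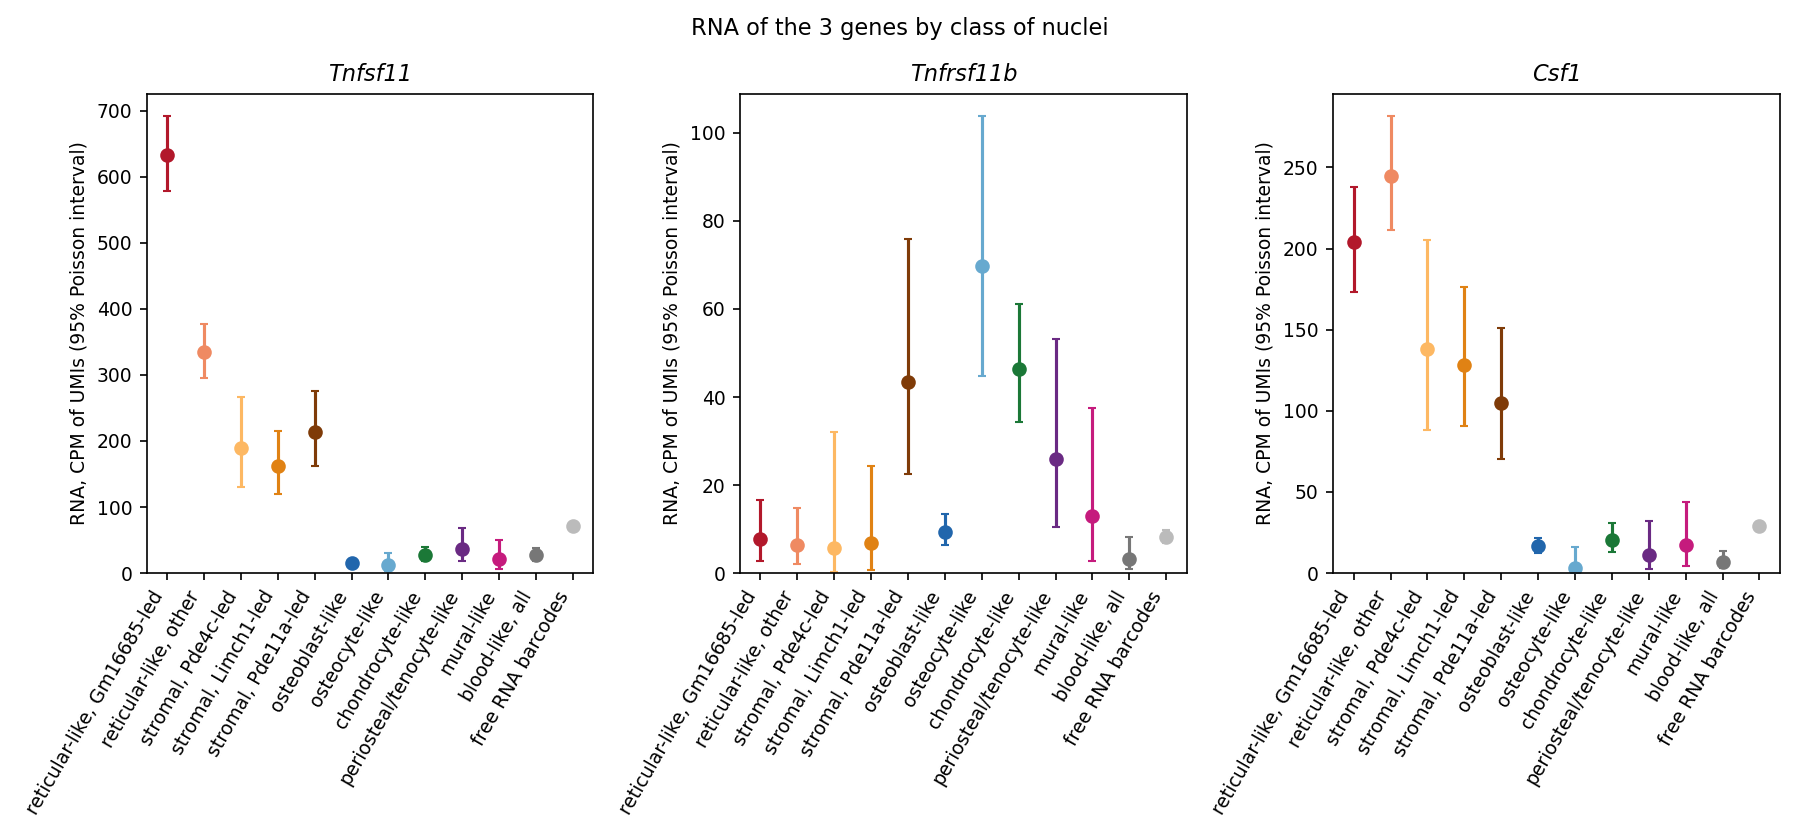
RNA level of Tnfsf11, Tnfrsf11b and Csf1 in each class, in CPM, with exact Poisson 95% intervals of 1 library. Tnfsf11 and Csf1 were high in both reticular-like classes and intermediate in the Limch1-, Pde4c- and Pde11a-led nuclei, whereas Tnfrsf11b was highest in osteocyte-like nuclei at 69.7 CPM.

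Csf1 RNA followed Tnfsf11 with a smaller range. Reticular-like nuclei gave 354 UMIs, or 224 CPM (202 to 249), against 83 UMIs and 16.2 CPM in the other named stromal classes, 13.7-fold higher (log2 ratio 3.78, 3.44 to 4.15), and held 62.8% of all Csf1 UMIs in nuclei. The reference again leaves out the Limch1-, Pde4c- and Pde11a-led clusters, which stood at 105 to 138 CPM. A UMI was found in 210 reticular-like nuclei (28.2%), against 1.44% of blood-like nuclei. Unlike Tnfsf11, Csf1 was not higher in the Gm16685-led class, at 204 CPM (160 UMIs), than in the other reticular-like nuclei, at 245 CPM (194 UMIs), with a log2 ratio of -0.26 (-0.57 to 0.05), though the ratio was 0.20 with no mitochondrial limit. The 2 Gm16685-led clusters were at 141 and 233 CPM, against 134 and 272 CPM in the others. The higher value of each pair was in the deeper cluster.

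The Pde4c-led (138 CPM, 24 UMIs), Limch1-led (128 CPM, 38 UMIs) and Pde11a-led nuclei (105 CPM, 29 UMIs) again came next for Csf1, with overlapping intervals. Chondrocyte-like (20.4 CPM), mural-like (17.2 CPM), osteoblast-like (16.7 CPM) and periosteal/tenocyte-like nuclei (11.1 CPM) followed, against 7.12 CPM in blood-like nuclei and 28.8 CPM in free RNA. Osteocyte-like nuclei gave a single Csf1 UMI (2.91 CPM), and endothelial-like nuclei gave 6, all in 1 of their 21 nuclei.

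Tnfrsf11b, the decoy receptor, had a different distribution and far fewer counts, 150 UMIs in all nuclei and 125 in the named stromal classes. Osteocyte-like nuclei gave 24 UMIs, or 69.7 CPM (44.7 to 104), and the log2 ratio to the other named stromal classes was 2.15 (1.42 to 2.78), a call shared by 7.82% of genes. These UMIs came from 9 of 57 nuclei (15.8%, median 2565 UMIs), against 0.825% of blood-like nuclei. The level was 7.42-fold that of osteoblast-like nuclei (log2 ratio 2.89, 2.05 to 3.71), which gave 30 UMIs and 9.43 CPM (6.36 to 13.5). Chondrocyte-like nuclei were next at 46.3 CPM (50 UMIs, 34.4 to 61.1; log2 ratio 1.80, 1.25 to 2.33), where 15.0% of genes were called higher, but 18 of the 50 UMIs came from 1 nucleus of the 13 with any. The intervals of osteocyte-like, chondrocyte-like and Pde11a-led nuclei (43.5 CPM, 12 UMIs) overlapped.

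In the reticular-like nuclei Tnfrsf11b was near background, with 11 UMIs and 6.97 CPM (3.48 to 12.5), against 3.16 CPM (0.862 to 8.10) in blood-like nuclei and 8.25 CPM in free RNA. The log2 ratio to the other named stromal classes was -1.62, a call shared by 9.86% of genes, and the Gm16685-led class (7.65 CPM, 6 UMIs) could not be told from the other reticular-like nuclei (6.30 CPM, 5 UMIs). Periosteal/tenocyte-like nuclei were at 25.8 CPM (7 UMIs), mural-like at 12.9 CPM (3 UMIs), Limch1-led at 6.75 CPM (2 UMIs) and Pde4c-led at 5.75 CPM (1 UMI).

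The share of Tnfsf11 among the UMIs of Tnfsf11 and Tnfrsf11b together does not scale with depth and put the classes in an order. The genes are of similar length (30599 and 27866 bases), but the share compares classes and not amounts of protein. It was 98.6% (97.5 to 99.3%) in reticular-like nuclei, with 98.8% in Gm16685-led and 98.1% in the others, 97.1% of 34 UMIs in Pde4c-led and 96.0% of 50 UMIs in Limch1-led nuclei. These did not differ beyond their intervals. It was 83.1% of 71 UMIs in Pde11a-led, 62.5% of 8 UMIs in mural-like, 61.0% (49.2 to 72.0%) of 77 UMIs in osteoblast-like and 58.8% of 17 UMIs in periosteal/tenocyte-like nuclei. Chondrocyte-like nuclei, at 37.5% (26.9 to 49.0%) of 80 UMIs, and osteocyte-like nuclei, at 14.3% (4.03 to 32.7%) of 28 UMIs, were the classes in which the decoy receptor gave more UMIs than the ligand. In these low classes the Tnfsf11 UMIs were at the level of blood-like nuclei, whose own share was 89.5% of 38 UMIs.

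**Figure D2:**
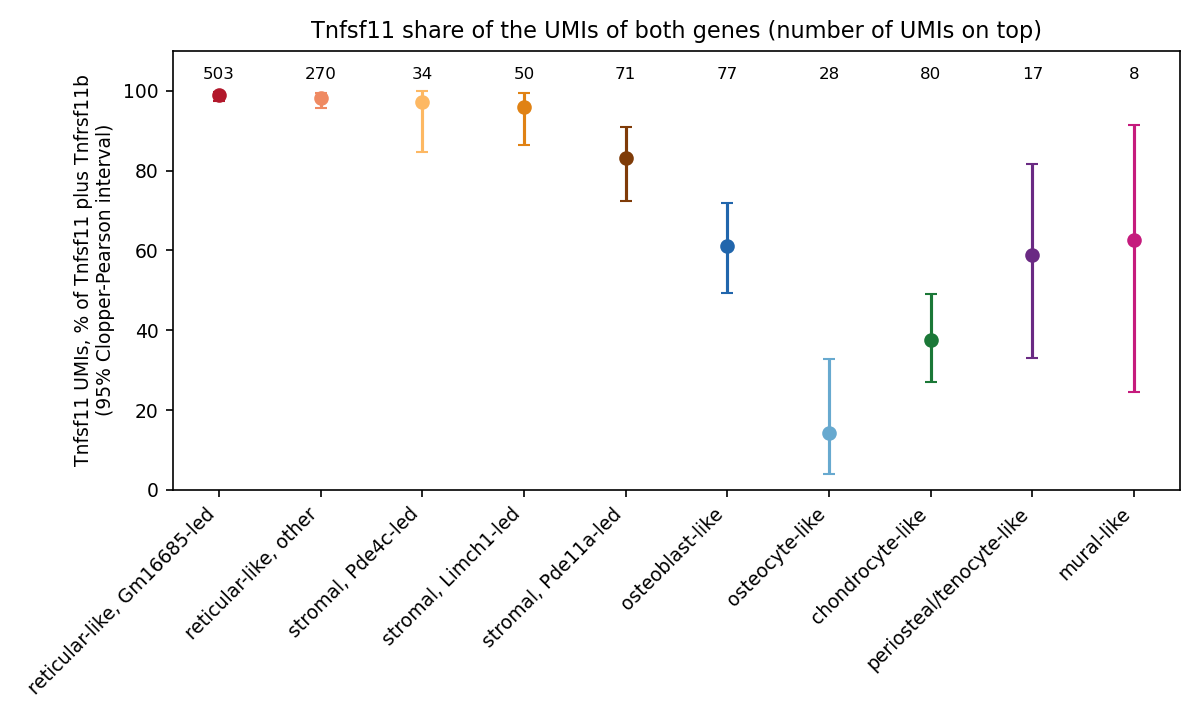
Tnfsf11 as a percentage of the UMIs of Tnfsf11 and Tnfrsf11b together in each stromal class, with exact binomial 95% intervals and the number of UMIs above each point. The share was 98.6% in reticular-like nuclei together, 37.5% in chondrocyte-like and 14.3% in osteocyte-like nuclei.

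Ligand and growth factor were found in the same nuclei. Of the 744 reticular-like nuclei, 89 held UMIs of both Tnfsf11 and Csf1 and 358 held none of the 3 genes. Csf1 was found in 33.7% (28.0 to 39.8%) of nuclei with Tnfsf11, against 25.2% (21.4 to 29.3%) of those without, but the nuclei with Tnfsf11 were also deeper, with medians of 2065 and 1214 UMIs. The part of depth in this difference was not tested. Tnfrsf11b was found beside Tnfsf11 in 8 reticular-like nuclei.

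Open chromatin over each gene body with 3 kb upstream followed the RNA in reticular-like nuclei with smaller ratios, but not in every class. For Tnfsf11 it was 109 CPM (ATAC counts per 1000000 of the class) in reticular-like nuclei against 43.0 CPM in the other named stromal classes (log2 ratio 1.35), and blood-like nuclei were at 9.93 CPM. The Gm16685-led class (105 CPM) was not above the other reticular-like nuclei (113 CPM), and Limch1-led (122 CPM) and Pde4c-led nuclei (110 CPM) stood at the same height although their RNA was lower. Osteoblast-like nuclei were at 49.2 CPM and osteocyte-like nuclei at 25.9 CPM. For Csf1 it was 131 CPM in reticular-like nuclei, against 72.6 CPM (log2 ratio 0.85), with 97.0 CPM in osteocyte-like nuclei, where the RNA was near 0. For Tnfrsf11b it was 81.2 CPM in osteocyte-like (log2 ratio 0.97 to the other named stromal classes), 67.3 CPM in osteoblast-like, 65.4 CPM in chondrocyte-like and 26.2 CPM in reticular-like nuclei. Osteoblast-like nuclei thus had an open Tnfrsf11b gene at a level close to that of chondrocyte-like nuclei, with 9.43 CPM of its RNA against 46.3 CPM. The log2 ratio of osteoblast-like nuclei to the other named stromal classes was 1.03 for this accessibility and -1.51 for the RNA, in opposite directions. Of all genes, 28.0% were called lower in osteoblast-like nuclei, with a median log2 ratio of -0.50, and 22.0% of all peaks were called higher. The Tnfrsf11b RNA of these nuclei was also near the 8.25 CPM of free RNA.

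The peak at the Tnfsf11 start (chr14:78307600-78308509) was at 21.0 CPM in reticular-like nuclei, against 8.33 CPM in the other named stromal classes (log2 ratio 1.33). It was at 30.6 CPM in Pde4c-led, 24.95 CPM in Limch1-led, 9.48 CPM in osteoblast-like and 8.46 CPM in osteocyte-like nuclei, and at 2.86 CPM in blood-like nuclei. The Csf1 start was open in every class, at 49.0 CPM in reticular-like against 35.7 CPM in the other named stromal classes (log2 ratio 0.46), with 38.0 CPM in osteoblast-like, 36.7 CPM in osteocyte-like and 29.8 CPM in blood-like nuclei. The Tnfrsf11b start was at 28.3 CPM in chondrocyte-like nuclei (log2 ratio 1.14), 16.7 CPM in osteoblast-like and 16.4 CPM in osteocyte-like nuclei. It was also at 6.97 CPM in Gm16685-led, against 16.3 CPM in other reticular-like nuclei (log2 ratio -1.22), though neither held more than 6 of its UMIs.

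Around Tnfsf11, 62 peaks lay within 200 kb of the gene on either side, and 61 passed the minimum of 20 counts. In reticular-like nuclei 19 were higher (31.1%, against 19.8% of the 181178 peaks tested genome-wide) and 26 were lower (36.1% genome-wide). Of these 19, 18 lay within 100 kb of the gene, where 41 peaks were found in all. They ran from -79.2 kb through the gene body to 70.5 kb, and 1 more lay at -165.9 kb. In osteoblast-like nuclei 18 peaks were higher (29.5%, against 22.0% genome-wide), a share close to that of reticular-like nuclei. In osteocyte-like nuclei 11 were higher (18.0%, against 18.3%) and in chondrocyte-like nuclei 14 (23.0%, against 25.6%).

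The site at -58.1 kb printed above (peak chr14:78365755-78366585) gave 92 counts, or 3.50 CPM, in reticular-like nuclei, against 6 counts and 0.227 CPM in the other named stromal classes (log2 ratio 3.84, 2.77 to 5.43). Osteoblast-like nuclei gave 1 count there, and Limch1-led, Pde4c-led and Pde11a-led nuclei, which also held Tnfsf11 RNA, gave 0. The site at 65.6 kb, beyond the end of the gene (peak chr14:78241910-78242891), gave 354 counts, or 13.5 CPM, against 31 counts and 1.17 CPM (log2 ratio 3.50), with 4.71 CPM in chondrocyte-like and 0.52 CPM in osteoblast-like nuclei, and with 0.70 CPM in Limch1-led and 4.26 CPM in Pde4c-led nuclei. The intronic site at 19.7 kb was larger with a smaller ratio, at 31.7 CPM in reticular-like nuclei against 6.66 CPM (log2 ratio 2.25), and was at 31.1 CPM in Limch1-led nuclei. The site at -26.0 kb was at 3.57 CPM in reticular-like nuclei, against 0.42 CPM (log2 ratio 3.04).

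Other sites of the same stretch were more accessible in osteoblast-like nuclei. The peak at -137.8 kb (chr14:78445407-78446299) gave 141 counts, or 9.22 CPM, in osteoblast-like nuclei, against 13 counts and 0.347 CPM in the other named stromal classes (log2 ratio 4.68), with 3.38 CPM in osteocyte-like and 0.11 CPM in reticular-like nuclei. The peak at 176.9 kb gave 3.33 CPM, against 0.160 CPM (log2 ratio 4.28). Their nearest gene starts were those of Akap11 and Fam216b, not of Tnfsf11. Akap11 itself stood at 50.1 CPM of RNA in reticular-like and 25.1 CPM in osteoblast-like nuclei, and Fam216b gave at most 1 UMI in any class, so the gene that such a site serves was not tested. Periosteal/tenocyte-like nuclei were higher at -123.5 kb, with 68 counts and 27.1 CPM, against 185 counts and 3.68 CPM in the other named stromal classes (log2 ratio 2.88).

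**Figure D3:**
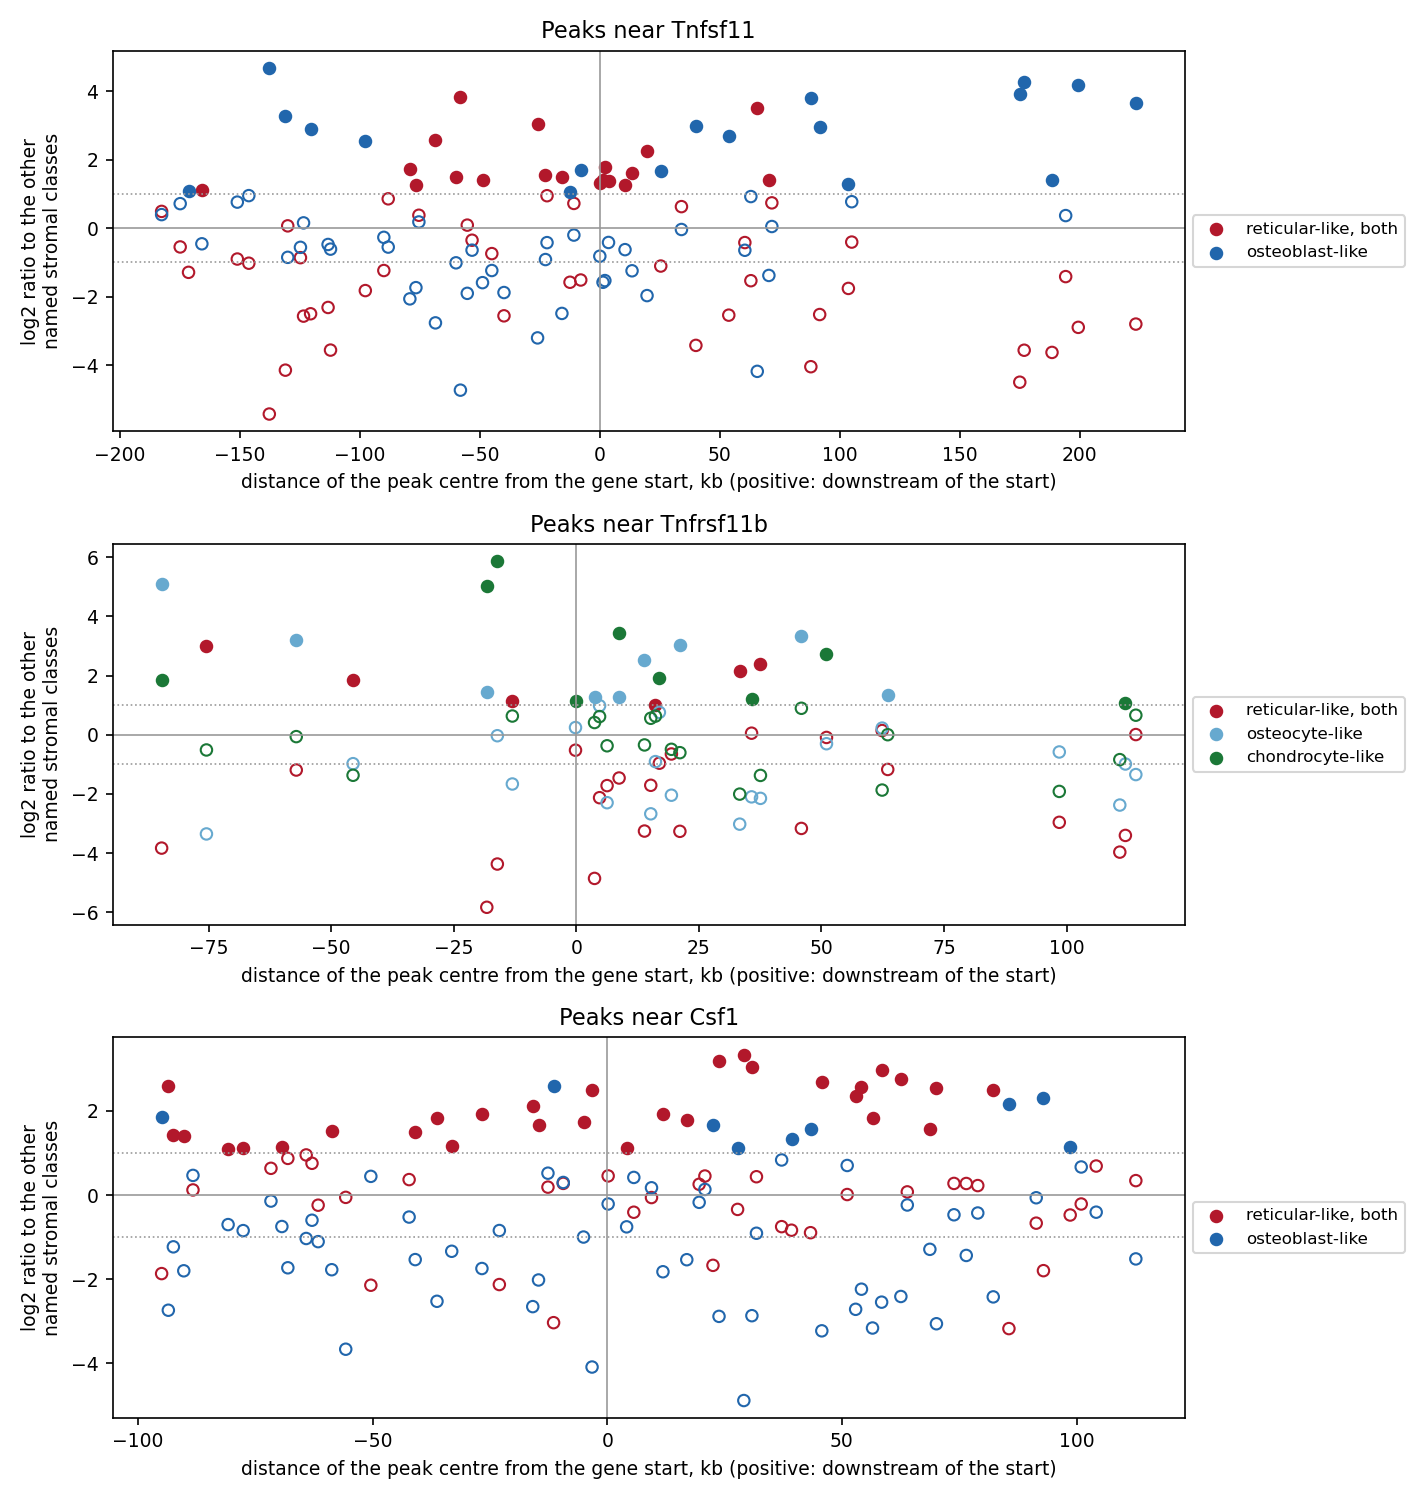
Log2 ratio of ATAC counts in a class to the other named stromal classes, for each peak near the 3 genes, by distance in kb from the gene start (positive: downstream of the start), with filled points for peaks at least 2-fold higher and dotted lines at a 2-fold difference. Sites higher in reticular-like nuclei gathered between -79.2 and 70.5 kb of Tnfsf11, and the peaks of the highest ratio near Tnfrsf11b were those of osteocyte-like nuclei at -84.6 kb and of chondrocyte-like nuclei at -16.1 kb.

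Around Tnfrsf11b, 29 of 32 peaks within 100 kb of the gene were tested, and in reticular-like nuclei 6 were higher (20.7%, against 19.8% genome-wide) and 16 lower (36.1% genome-wide). Osteoblast-like, osteocyte-like and chondrocyte-like nuclei had 9 higher each (31.0%, against 22.0%, 18.3% and 25.6% genome-wide), and Limch1-led nuclei had 12 (41.4%, against 14.0% of 184314 peaks). The site at -84.6 kb (peak chr15:54362563-54363521) gave 78 counts, or 44.0 CPM (34.8 to 54.9), in osteocyte-like nuclei, against 66 counts and 1.30 CPM in the other named stromal classes (log2 ratio 5.08, 4.59 to 5.58). It was at 14.5 CPM in Pde11a-led, 8.0 CPM in chondrocyte-like and 1.11 CPM in osteoblast-like nuclei. Osteocyte-like, Pde11a-led and chondrocyte-like nuclei were also the classes of highest Tnfrsf11b RNA. The nearest gene start was that of Colec10, 47.7 kb away, which gave 0 UMIs in osteocyte-like and 1 UMI in osteoblast-like nuclei. The gene that this site serves was not tested.

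In chondrocyte-like nuclei other sites upstream of Tnfrsf11b were higher. The site at -16.1 kb (peak chr15:54294120-54295036) gave 63 counts, or 14.8 CPM, in chondrocyte-like nuclei, against 12 counts and 0.248 CPM (log2 ratio 5.86, 5.0 to 6.93), and the site at -18.2 kb gave 4.94 CPM against 0.144 CPM (log2 ratio 5.03). In osteoblast-like nuclei the higher peaks lay mainly inside the gene. The intronic peak at 3.7 kb was at 10.7 CPM there, against 1.60 CPM (log2 ratio 2.73), with 9.59 CPM in osteocyte-like and 0.27 CPM in reticular-like nuclei, and a peak at 110.9 kb was at 4.25 CPM, against 0.240 CPM (log2 ratio 4.08). Reticular-like nuclei had a site at -75.4 kb, with 4.94 CPM against 0.606 CPM (log2 ratio 2.99), at which osteoblast-like nuclei gave 0 counts. The peak of highest ratio in periosteal/tenocyte-like nuclei lay at 98.5 kb and rested on 11 counts, against 10 (log2 ratio 4.45).

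Around Csf1, 67 of 72 peaks within 100 kb of the gene were tested. In reticular-like nuclei 30 were higher (44.8%, against 19.8% genome-wide) and 7 lower (36.1% genome-wide), and in osteoblast-like nuclei 9 were higher (22.0% genome-wide) and 31 lower (46.3%, against 29.5% genome-wide). Osteocyte-like nuclei had 7 higher (18.3% genome-wide) and chondrocyte-like nuclei 3 (25.6% genome-wide). The site at 29.1 kb (peak chr3:107731002-107731765) gave 166 counts, or 6.31 CPM, in reticular-like nuclei, against 16 counts and 0.606 CPM (log2 ratio 3.34), and the site at 23.8 kb gave 8.14 CPM against 0.87 CPM (log2 ratio 3.20). Both sites lie beyond the end of the gene, whereas no named stromal class differed by 2-fold at the Csf1 start. The window also holds the gene Ahcyl1, which stood at 184 CPM of RNA in reticular-like and 52.8 CPM in osteoblast-like nuclei. Several peaks of the window lie in Ahcyl1, and the gene that a site serves was not tested. Mural-like nuclei had a site at -55.8 kb, with 6.58 CPM (17 counts) against 0.598 CPM (log2 ratio 3.48).

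Gm16685-led and other reticular-like nuclei were then compared peak by peak. Near Tnfsf11, 8 of 40 peaks tested were higher in Gm16685-led nuclei (20%, against 15.7% of 118581 peaks genome-wide) and 0 were lower (15.5% genome-wide). The site at -76.7 kb (peak chr14:78384392-78385045) gave 87 counts, or 6.59 CPM, in Gm16685-led, against 19 counts and 1.45 CPM in other reticular-like nuclei (log2 ratio 2.15, 1.46 to 2.98), and periosteal/tenocyte-like nuclei were at 6.76 CPM. The site at 65.6 kb gave 269 counts, or 20.4 CPM, against 85 counts and 6.49 CPM (log2 ratio 1.64, 1.29 to 2.02). The peak at -165.9 kb gave 20.8 CPM, against 6.64 CPM (log2 ratio 1.64). The site at -60.0 kb, at 13.6 CPM in Gm16685-led and 24.96 CPM in other reticular-like nuclei, was under the 2-fold rule.

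**Figure D4:**
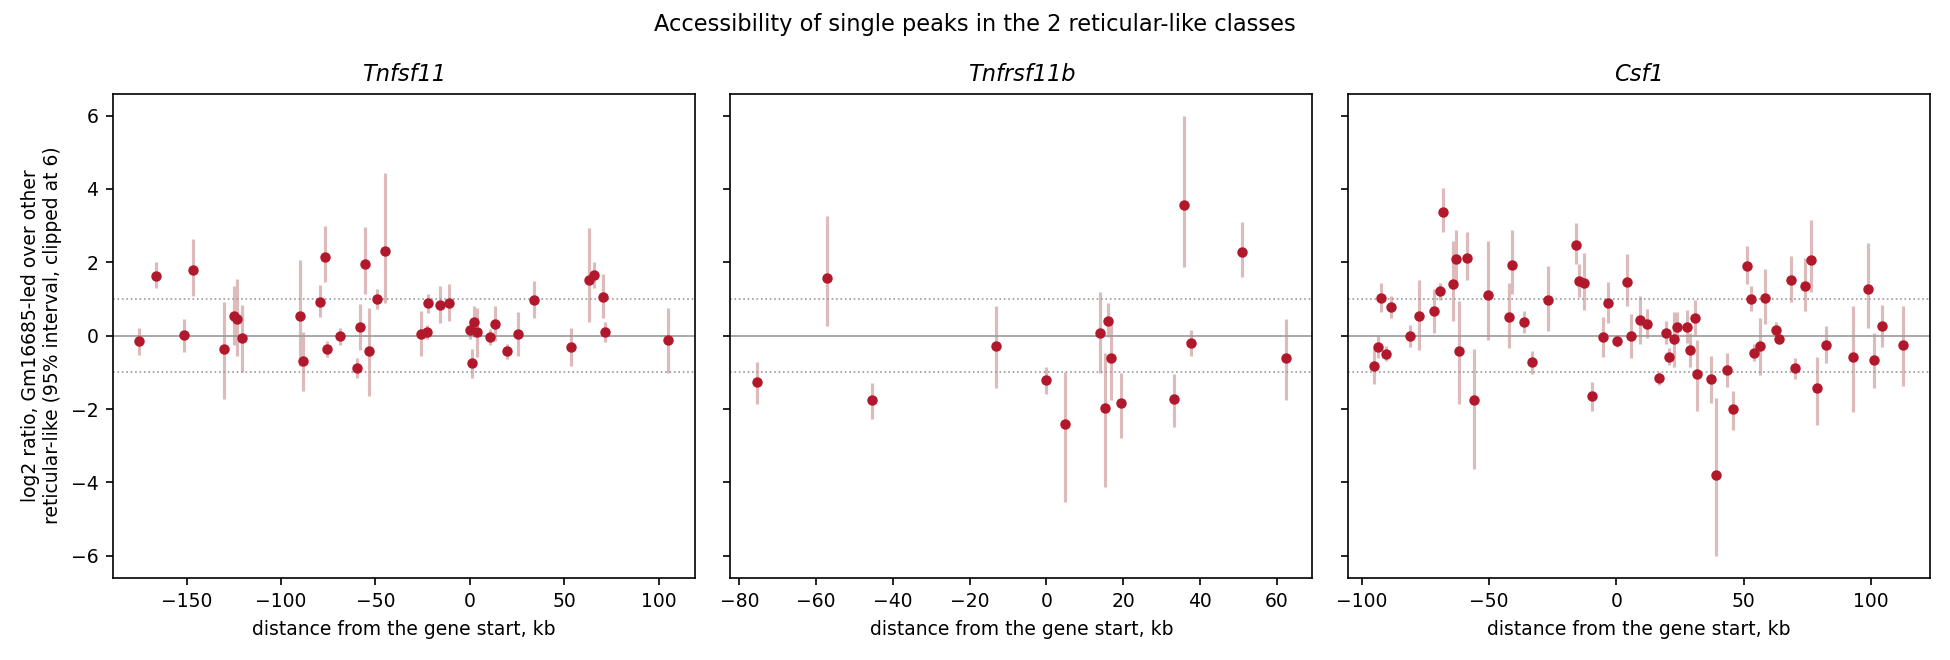
Log2 ratio of ATAC counts in Gm16685-led to other reticular-like nuclei for each peak tested near the 3 genes, by distance in kb from the gene start, with 95% counting intervals (drawn to at most 6) and dotted lines at a 2-fold difference. Near Tnfsf11, 8 of 40 peaks were above the upper line and 0 below the lower one, and near Tnfrsf11b 3 of 16 were above and 7 below. Genome-wide, 15.7% of peaks were above and 15.5% below.

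Near Tnfrsf11b the balance went the other way, with 3 peaks higher and 7 lower of 16 tested (18.8% and 43.8%, against 15.7% and 15.5% genome-wide). The share of higher peaks was thus near that of all peaks. Near Csf1, 19 were higher and 8 lower of 63 (30.2% and 12.7%, against 15.7% and 15.5%), although the RNA was not higher in Gm16685-led nuclei. The site at -68.1 kb (peak chr3:107828196-107828945, in an intron of Gm36211) gave 287 counts, or 21.7 CPM, in Gm16685-led, against 27 counts and 2.06 CPM in other reticular-like nuclei (log2 ratio 3.37, 2.83 to 4.03), and mural-like nuclei were at 21.7 CPM too. The site at -15.9 kb gave 14.1 CPM against 2.52 CPM (log2 ratio 2.47). In the other direction, the site at 45.7 kb gave 2.95 CPM in Gm16685-led, against 11.98 CPM in other reticular-like nuclei (log2 ratio -2.01). The gene start nearest to that site was that of Ahcyl1. The exonic peak at 16.9 kb gave 28.6 CPM against 63.7 CPM (log2 ratio -1.16).

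The rest of the pathway was read from 7 lists of 85 genes, against a median log2 ratio over all genes of 0.36 in reticular-like nuclei. Of the receptors of hormones and cytokines that act on Tnfsf11, 7 of 14 tested were higher in reticular-like nuclei (21.2% of all genes were) and 1 lower (9.86% of all genes were), with a median of 1.01. The 7 were Il6st and Lifr, subunits of receptors of the interleukin-6 family, Ptger4, a prostaglandin E2 receptor, Il1r1, Tnfrsf1a and Il17ra, receptors of inflammatory cytokines, and the estrogen receptor Esr1. Pth1r, the parathyroid hormone receptor, was lower, and stood at 1257 CPM in chondrocyte-like nuclei. Vdr, the vitamin D receptor, was at 303 CPM in Gm16685-led and 136 CPM in other reticular-like nuclei, and at 325 CPM in osteocyte-like nuclei. It was called higher in Gm16685-led and in osteocyte-like nuclei.

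Cytokines and inducers made locally were few in UMIs. Of 7 tested, 4 were higher in reticular-like nuclei (Lif, Clcf1, Ccl2 and Cxcl1, beside 21.2% of all genes) and 1 lower (Il11, beside 9.86%), and in the Gm16685-led class 5 were higher (15.7% of all genes were), since Il6 passed too. Ccl2, which attracts monocytes, gave 101 UMIs and 129 CPM in Gm16685-led nuclei, against 12 UMIs and 15.1 CPM in other reticular-like nuclei. Il6 was at 150 CPM (35 UMIs) in mural-like nuclei. Ptgs2, the prostaglandin-forming cyclooxygenase, was at 288 CPM in osteocyte-like nuclei, and Il11 at 20.4 CPM (22 UMIs) in chondrocyte-like nuclei.

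Of the 17 transcription factors and kinases that act on the Tnfsf11 and Tnfrsf11b genes, 6 were higher in reticular-like nuclei (Creb1, its coactivator gene Crtc3, Cebpb, Cebpd, Ebf2 and Nfkb1, beside 21.2% of all genes) and Mef2c was lower (9.86%). In Gm16685-led nuclei 10 were higher, beside 15.7% of all genes, whose median log2 ratio was 0.10. Nfkb1, a subunit of NF-kB, stood at 933 CPM in Gm16685-led and 232 CPM in other reticular-like nuclei, and Cebpb at 458 CPM in Gm16685-led and 142 CPM in other reticular-like nuclei. Il1r1, of the receptor list, was at 577 CPM in Gm16685-led and 265 CPM in other reticular-like nuclei. Mef2c, which is known to act on the osteocyte gene Sost, was at 1572 CPM in osteocyte-like nuclei and called higher there.

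Of the genes for shedding and transport of the ligands, 0 of 10 tested were higher (21.2% of all genes were) and 4 lower (9.86%) in reticular-like nuclei: Rab27a and Rab27b, of secretory vesicles, and the protease inhibitors Timp1 and Timp3. In osteocyte-like nuclei 4 were higher, beside 7.82% of all genes (Mmp14, which cleaves RANKL from the membrane, Rab27a, Rab27b at 139 CPM and Timp2). Timp3 was at 727 CPM in chondrocyte-like nuclei (log2 ratio 4.05). Of 14 Wnt and related genes, 2 were higher in reticular-like nuclei (21.2% of all genes were), the secreted Wnt antagonists Sfrp1 and Sfrp4, and 4 lower (9.86%), which were Wnt10b, Tcf7, Lef1 and Lgals3. Lgals3 was at 343 CPM in chondrocyte-like nuclei (log2 ratio 3.94). Il34, which shares the receptor of CSF1, was at 63.4 CPM in reticular-like nuclei and called higher, as were Sdc1 (81.1 CPM) and Csf1r (9.51 CPM, 15 UMIs). Of 5 genes of the osteoclast side, 1 was higher, beside 21.2% of all genes (Fcer1g, at 30.6 CPM and 24 UMIs in Gm16685-led nuclei).

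Periosteal/tenocyte-like and mural-like nuclei differed from the rest of the stroma in several of these genes. Il11ra1, the interleukin-11 receptor, was at 151 CPM in periosteal/tenocyte-like nuclei, against 10.4 CPM in the other named stromal classes (log2 ratio 3.86), and Timp2 at 782 CPM, against 84.0 CPM (log2 ratio 3.22). Vdr was at 11.1 CPM there (3 UMIs), against 166 CPM, and the sorting receptor Sort1 gave 1 UMI. Crem, a factor of the cAMP response, was at 107 CPM in mural-like nuclei, against 15.2 CPM (log2 ratio 2.84). The Wnt receptor Ror2 gave 0 UMIs in osteocyte-like nuclei and Wnt4 0 in periosteal/tenocyte-like nuclei, against 276 and 349 UMIs in the other named stromal classes. Nfatc1, the factor that RANKL induces in osteoclasts, was at 401 CPM in chondrocyte-like nuclei, against 83.6 CPM (log2 ratio 2.26).

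Osteoblast-like nuclei were low in several of these genes. Il6 gave 1 UMI, against 61 in the other named stromal classes, Il34 gave 7 against 122, and Ptger4 gave 4 against 48. Il1r1 was at 19.2 CPM, against 238 CPM (log2 ratio -3.62), and Ebf2 at 2.51 CPM, against 81.0 CPM (log2 ratio -4.92). Among the receptors of hormones and cytokines, 10 of 14 were lower in this class (28.0% of all genes were), with a median log2 ratio of -1.51 beside -0.50 over all genes.

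The receptors themselves were on the macrophage-like nuclei of the same sort, where Tnfrsf11a (RANK) gave 73 UMIs and 149 CPM (117 to 187) and Csf1r stood at 398 CPM. Tnfrsf11a gave at most 4 UMIs in any stromal class. Csf1r in reticular-like nuclei was thus far under its level in macrophage-like nuclei, and whether its 15 UMIs are free RNA was not tested.

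**Figure D5:**
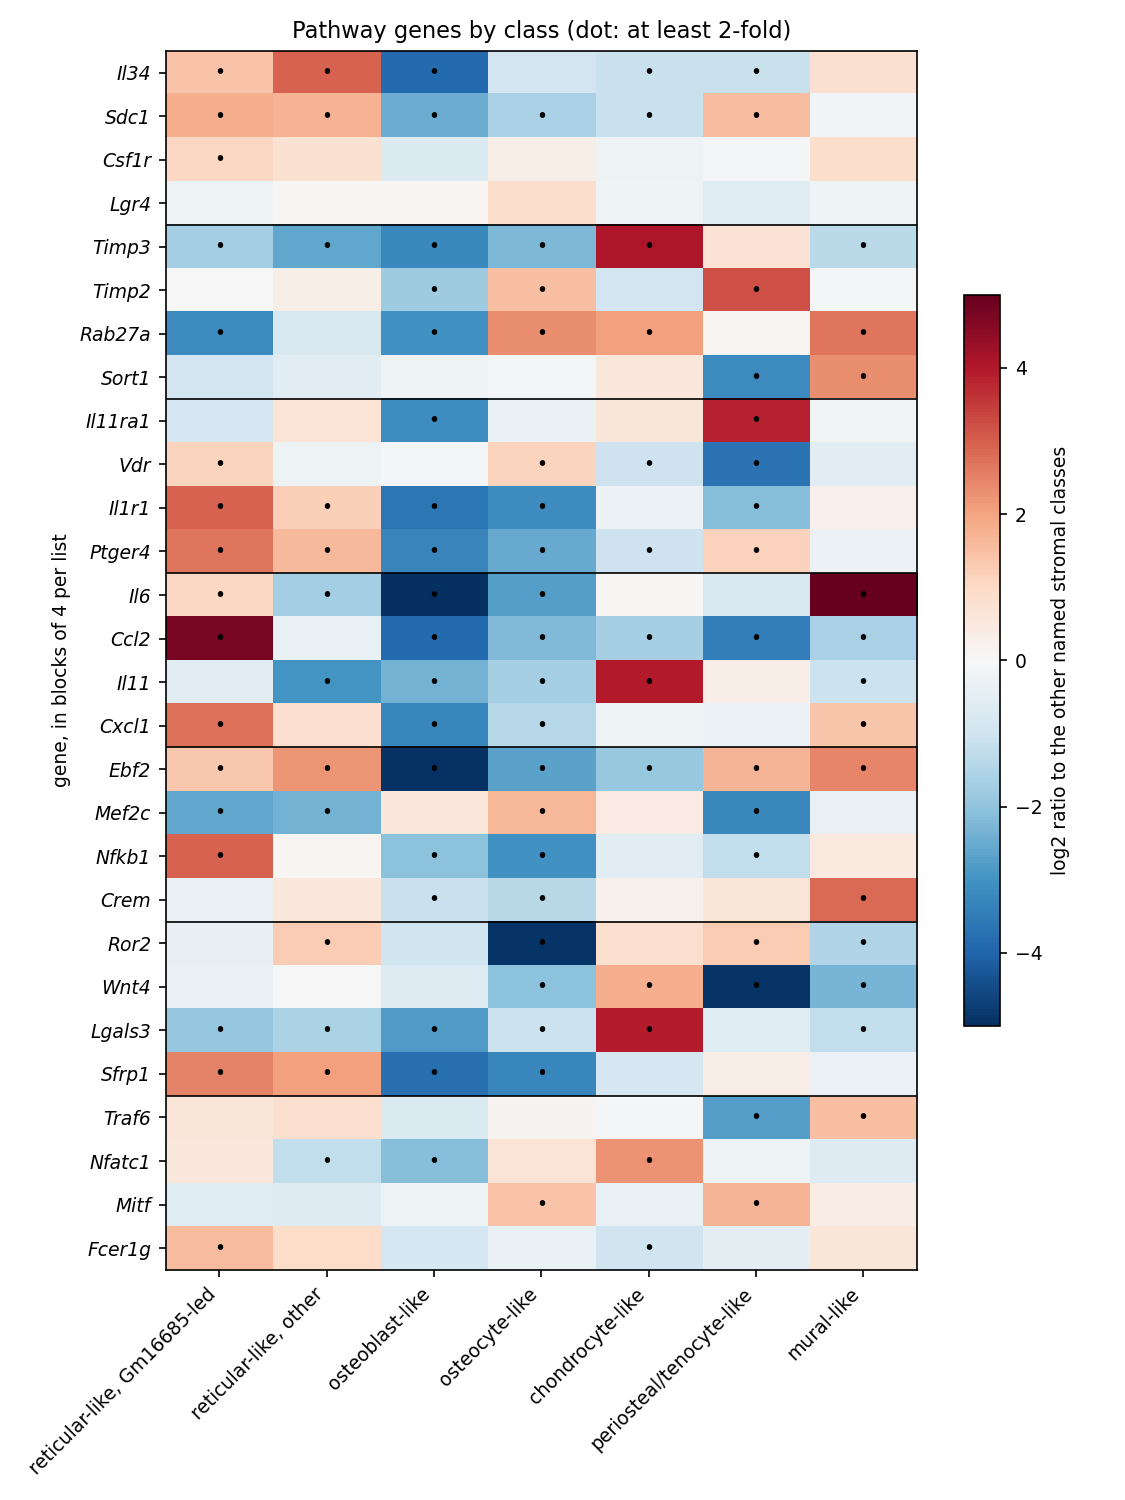
Log2 ratio of RNA in each of the 7 named stromal classes to the other 6, for 28 genes of the pathway in 7 lists of 4, with colours limited to ±5 and a dot where the ratio is at least 2-fold. Nfkb1, Il1r1, Ptger4 and Vdr were higher in Gm16685-led nuclei, Vdr and Mef2c in osteocyte-like nuclei, and Timp3, Lgals3 and Il11 in chondrocyte-like nuclei.

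The genes whose levels were most like those of each member were found by Pearson correlation over 15 classes on log2(CPM + 5). These classes share 1 library and free RNA, and the values are a description. For Tnfsf11 they were Cyp1b1 (r = 0.944), Csmd1 (0.922), Ccbe1 (0.905), Cp (0.898) and Fbln5 (0.894). For Csf1 they were Pappa (0.941), which served as a reticular marker, Thsd4 (0.936), Igsf3 (0.923), Ccbe1 (0.923) and Cp (0.917), so Ccbe1 and Cp were on both lists. For Tnfrsf11b, with few UMIs, they were Zfp827 (0.901), Wnt5b (0.881), Usp53 (0.872), Tpbg (0.845) and Tiam2 (0.842). Cyp1b1 was at 251 CPM in reticular-like nuclei and 11.1 CPM in chondrocyte-like nuclei, and Wnt5b at 206 CPM in chondrocyte-like and 30.4 CPM in reticular-like nuclei.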

How the data were processed

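The authors deposited raw counts of 1 multiome library (RNA UMIs of 32293 genes and ATAC counts of 203545 peaks), which per the file headers and labels come from Cell Ranger ARC 2.0.0 and mm10. Per the labels about 15000 nuclei were loaded. A separate peak list and the reads were not used.

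Barcodes with at least 500 UMIs and 1000 ATAC counts were 4663, and 2684 of them had at most 20% mitochondrial UMIs. This limit was used because 10% left no chondrocyte-like class. Scrublet marked 0.186%, too few, so the 58 highest scores were removed (0.8% per 1000 nuclei), which left 9497445 UMIs and 84045130 ATAC counts. Leiden clustering at resolution 1.5 (scanpy 1.11.5, 30 components of 3000 variable genes without the 3 genes and the pathway lists) gave 21 clusters. A cluster took the name of the marker list with the highest mean log2 ratio to the median cluster, if that was at least 1 and led the next list by 0.2, if at least 3 markers had 10 UMIs and 2 times the median level, and if 1 marker was among its 20 leading genes (periosteal and tenocyte lists, both high, share a name). Clusters with Limch1, Pde4c or Pde11a among 10 leading genes that got no name, or that of reticular or hypertrophic nuclei without Gm16685 among those 10, are called by that gene. This naming rule came after a look at the data, and the members, lists and markers were chosen with earlier results of these data known, so no count is independent support.

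UMIs and ATAC counts were summed per class and divided by the class total (CPM), with exact Poisson and exact binomial (Clopper-Pearson) intervals. PCR copies are collapsed in UMIs. Ratios used 0.5 added counts and the other named stromal classes as reference, without the Limch1-, Pde4c- and Pde11a-led clusters. A call asks for 2-fold and 20 counts. For 1 library there is no test between animals and p-values were not computed. The scripts were tested on simulated data. The genes named were the 4 of each list farthest from a log2 ratio of 0 in any class, the start peak and the 2 peaks of highest ratio per class, and the 5 genes of highest correlation. The other genes and peaks named are list members that were called, or were chosen after their values were seen.

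Alternatives were other limits on barcodes, resolutions, doublet rates, scalings, added counts, a per-nucleus marker gate and subtraction of free RNA (62603 barcodes of 100 to 400 UMIs, median 229). Of the genes, 99.6% had a GENCODE identifier, and the peaks lay inside all 21 chromosomes of GRCm38. Distances for Csf1 are from its annotated gene start.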

Additional observations from a re-analysis of the deposited data

How the results depend on the processing

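The alternatives were applied 1 at a time. For the ratios and counts taken as main results, 83 alternative values stayed within the interval of the main setting, or within 1.5-fold for counts, and 15 did not. For the other results 486 stayed, 116 did not and 1 was reversed. Of 448 alternative values of log2 ratios at or past 2-fold, 447 kept their sign and 427 stayed at or past 2-fold. The exception in sign was Csf1 in osteocyte-like nuclei, with 0.56 under the per-nucleus marker gate, which left 3 such nuclei. Under that gate the log2 ratio of Tnfsf11 in reticular-like nuclei was 3.17, that of Csf1 2.98, that of Tnfrsf11b in osteocyte-like nuclei 5.73, and the accessibility ratios in reticular-like nuclei were 0.76 for Tnfsf11 and 0.69 for Csf1, both under 2-fold. The gate gave no Gm16685-led class. With a 10% mitochondrial limit, which left no chondrocyte-like or periosteal/tenocyte-like class, Tnfrsf11b in osteocyte-like nuclei was 3.07, Csf1 accessibility in reticular-like nuclei 0.76 and Tnfsf11 in Gm16685-led against other reticular-like nuclei 0.47. That last ratio was 0.64 with 2 times as many doublets removed. With no mitochondrial limit Csf1 in reticular-like nuclei was 4.33, and with at least 1000 UMIs Tnfsf11 accessibility was 1.24. Peaks near Tnfsf11 called higher in reticular-like nuclei were 8 at 3-fold, against 19. Genes called higher there were 17861 with no count minimum, 4285 at 1.5-fold and 1063 at 3-fold, against 2364. The causes of these shifts were not tested. Tnfrsf11b rested on 125 UMIs in named stroma, which limits every comparison of its RNA. No comparison paired by animal was possible because there is 1 library.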
